A study of Mus musculus and Homo sapiens with 12 samples.

Results

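Replication-dependent histone genes encode the core histones H2A, H2B, H3 and H4 and the linker histone H1 that package newly copied DNA. They are transcribed mainly in S phase from clusters of short genes without introns, in a nuclear compartment called the histone locus body. Their mRNAs end in a stem-loop that binds SLBP in place of a poly(A) tail. The proteins they make carry the lysines studied here, K18 of H3 and K12 of H4, so the question asked of these data was whether the genes themselves lay under the butyryl (Kbu) or acetyl (Kac) marks.

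Members were protein-coding genes whose symbol begins with H1-, H2AC, H2BC, H3C or H4C followed by a digit. The rule took 74 of 20033 human genes of GENCODE (GRCh38) and 57 of 21887 mouse genes of RefSeq (GRCm38). The human set held 10 H1, 17 H2A, 19 H2B, 13 H3 and 15 H4 genes, of which 53 start between 26 and 28 Mb of chromosome 6 and 11 lie in a stretch of chromosome 1 (chr1:149782689-149887965). The mouse set held 17 H2A, 16 H2B, 12 H3 and 12 H4 genes, 47 on chromosome 13 and 10 on chromosome 3. Mouse linker histone genes carry other symbols and were not taken by the rule.

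CUT&Tag, in which an antibody brings a transposase to chromatin that carries a mark, was analysed in 12 libraries. CCD841 cells, a line from normal human colon, were treated with 1 mM sodium butyrate (NaBu) for 12 to 16 h, with 2 libraries for H3K18bu and 2 for H4K12bu. No untreated CCD841 library and no CCD841 Kac library was analysed here, so no value below is an effect of NaBu. Large intestine of male CETP-ApoB-100 transgenic mice, 2 per condition, gave 2 libraries for each of H3K18bu, H4K12bu, H3K18ac and H4K12ac. By the labels, the Kbu mice were fed a diet high in fat and sucrose with 5% arabinoxylan, a cereal fiber, and the Kac mice the same kind of diet with no arabinoxylan named. The study's methods name a low fat control diet and a high fat, high sucrose one with arabinoxylan, and do not say which mice gave the Kac libraries. Acyl group and diet therefore cannot be told apart in mouse, and whether the diets differed is uncertain. The age of the mice is not given in the sources used here. Nothing says that the CCD841 replicates came from separate cultures. Each library was deposited as a list of peaks with its fold enrichment relative to a local background, its −log10 p and its −log10 q. The lists held 299296 to 299720 peaks in CCD841 cells, 299623 to 299861 in the mouse Kac libraries and 50675 to 96432 in the mouse Kbu libraries. The pileup, the number of overlapping sequenced fragments or read ends at a peak, was recovered from fold and p. A consensus region is a stretch with peaks of both replicates that overlap. A listed peak says that a region stood out from its surroundings, and fewer cells carrying a mark cannot be told apart from less of the mark in each cell.

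The sequences of the human genes carried the marks of the class. A perfect 6-base stem around a 4-base loop that begins with TTT was found in 64 of 74 members, within the gene or the next 100 bases on its own strand. The 2 most frequent forms, in 40 and 10 members, are shown with the stem in capitals.
Form of 40 members: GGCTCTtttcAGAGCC
Form of 10 members: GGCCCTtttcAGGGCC
The 10 members without it included H1-7, H1-8 and H1-10, linker genes outside the clusters that are not regarded as replication-dependent. They stay among the 74 because the rule takes them.

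Promoters, read as the 300 bases from 250 before to 50 from the annotated start on, were searched on both strands for TATAAA (the TATA box), CCAAT (the CCAAT box) and ATTTGCAT (the octamer bound by POU2F1). No motif contains another, although TATAAA can overlap its own complement. TATAAA was in 64.9% of the 74 members and in 10.8% of all 20033 promoters, and CCAAT in 82.4% and 35.9%. H4 promoters were apart for CCAAT, with 6 of 15 (40%), whereas all 17 H2A and all 13 H3 promoters held it. ATTTGCAT was in 12 of 17 H2A and 14 of 19 H2B promoters, in 1 of 13 H3 promoters and in no H4 or H1 promoter, against 1.702% of all promoters. That H3 promoter is the one of H3C12, which overlaps the promoter of H2AC17 on the genome. In mouse, where 52 of 57 members matched a RefSeq promoter of GRCm38.p6, the shares were 57.7% against 14.8% for TATAAA and 84.6% against 42.3% for CCAAT, again with few H4 promoters (3 of 11, 27.3%). Median GC content of the promoter was 44.3% over human members and 60.3% over all human protein-coding genes.

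Below are 3 promoters, 5′ to 3′, with motif matches of either strand in capitals. H2AC11 (chr6:27132793-27133092, GRCh38, plus strand) and H2BC11, on the minus strand, start 248 bases apart, face away from each other and shared an H3K18bu consensus region. H4C14 (chr1:149832407-149832706, GRCh38, plus strand) ranked first among H4 members by the H3K18bu peak of its weaker replicate. Mouse H3c15 (chr3:96239078-96239377, GRCm38.p6, minus strand, from RefSeq) was the mouse H3 gene with the strongest H3K18bu peaks.
H2AC11: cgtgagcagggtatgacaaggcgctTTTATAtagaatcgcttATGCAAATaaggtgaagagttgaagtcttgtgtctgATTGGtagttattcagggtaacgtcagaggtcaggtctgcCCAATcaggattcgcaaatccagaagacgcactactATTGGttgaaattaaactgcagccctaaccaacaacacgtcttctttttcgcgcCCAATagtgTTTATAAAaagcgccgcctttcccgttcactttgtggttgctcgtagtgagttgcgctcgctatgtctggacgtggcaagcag
H4C14: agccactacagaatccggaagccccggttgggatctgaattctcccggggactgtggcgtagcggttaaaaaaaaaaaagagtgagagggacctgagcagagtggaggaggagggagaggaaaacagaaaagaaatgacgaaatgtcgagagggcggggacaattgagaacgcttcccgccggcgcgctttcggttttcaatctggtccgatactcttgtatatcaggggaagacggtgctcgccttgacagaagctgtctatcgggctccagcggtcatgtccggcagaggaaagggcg
H3c15: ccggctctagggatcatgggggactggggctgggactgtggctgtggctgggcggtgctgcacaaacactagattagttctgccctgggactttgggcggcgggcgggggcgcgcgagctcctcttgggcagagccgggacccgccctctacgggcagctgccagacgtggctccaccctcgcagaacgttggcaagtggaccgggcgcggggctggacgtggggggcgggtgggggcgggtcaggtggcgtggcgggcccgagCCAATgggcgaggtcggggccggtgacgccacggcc
The H2AC11 promoter held all 3 motifs and the H4C14 promoter none of them. The promoter of H4C15, the other copy of this H4 gene on chromosome 1, was identical to that of H4C14 in 300 of 300 bases, so reads from the 2 genes cannot be assigned by this sequence.

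In NaBu-treated CCD841 cells, few histone genes lay under a butyryl mark that both replicates listed. For H3K18bu, 7 of 74 members (9.46%) had a consensus region within 1 kb of the start, against 31.3% of all protein-coding genes. For H4K12bu it was 2 of 74 (2.70%), against 14.7%. The 7 members were H1-1, H1-8, H2AC11, H2BC11, H4C8, H4C14 and H4C15, with 6 regions among them since H2AC11 and H2BC11 share theirs. H1-8 and H4C15 were the members with an H4K12bu region. Counts by family for H3K18bu were 2 of 10 H1, 1 of 17 H2A, 1 of 19 H2B, 0 of 13 H3 and 3 of 15 H4 genes. No H3, H2A or H2B gene had a consensus region for H4K12bu.

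**Figure D1:**
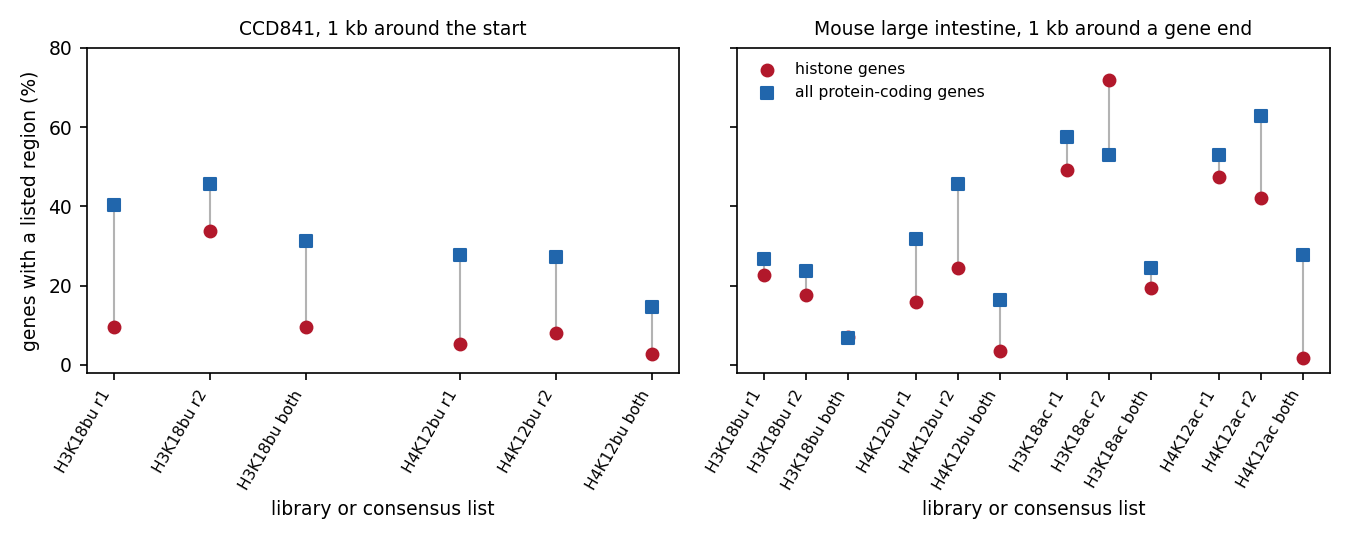
Share of genes (y axis, %) with a listed region near the start (CCD841, left) or near a gene end (mouse, right), for each replicate (r1, r2) and for consensus regions (both). Circles are the 74 human or 57 mouse histone genes and squares all protein-coding genes; circles lie below squares in every CCD841 list, from 2.70% against 14.7% to 33.8% against 45.6%.

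The counts of single libraries differed between replicates for H3K18bu. Replicate 1 listed a peak at 7 of 74 members, against 40.3% of all genes, and replicate 2 at 25 of 74 (33.8%), against 45.6%. By family, replicate 2 listed 9 of 17 H2A (52.9%), 7 of 19 H2B, 2 of 13 H3, 4 of 15 H4 and 3 of 10 H1 genes, each beside 45.6% of all genes, and no difference between families was tested. The 18 members seen only in replicate 2 had pileups of 7 to 14, with a median of 7. Of these, 14 had a strongest peak below a −log10 p of 5.31, the lowest value in the list of replicate 1, whereas the list of replicate 2 goes down to 4.56. Several of the 18 are neighbors with the same strongest peak. H2BC21, H2AC20 and H2AC21 share one, and so do H3C12, H2AC17 and H2BC17. The 18 members, and the members within a family, are therefore not separate observations. For H4K12bu, replicate 1 listed a peak at 4 members (27.8% of all genes) and replicate 2 at 6 (27.3% of all genes). A peak in at least 1 of the 4 CCD841 libraries was listed for 28 of 74 members and for 61.1% of all genes. The 46 members without one included 11 of 13 H3 genes and 10 of 15 H4 genes.

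**Figure D2:**
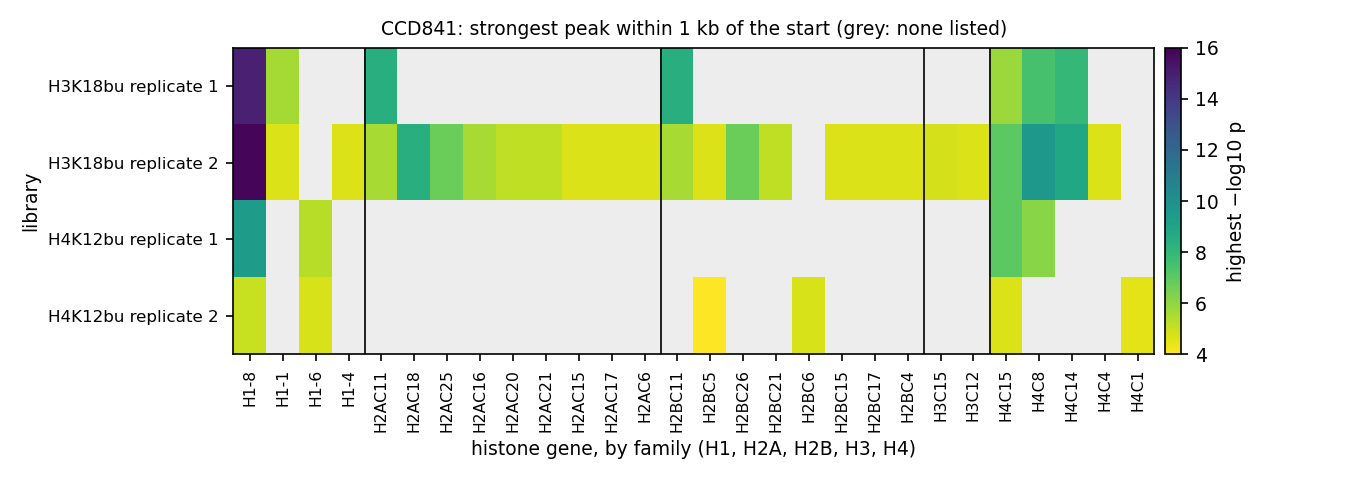
Highest −log10 p of a peak within 1 kb of the start (color) in each of the 4 CCD841 libraries (rows) for the 28 histone genes with a peak in any of them (columns, by family). H1-8 is high in both H3K18bu rows (14.9 and 15.9), and most genes are filled only in the H3K18bu replicate 2 row, near its lowest values.

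H1-8, the oocyte linker histone, had the strongest peaks of all members. Its H3K18bu peaks had a −log10 p of 14.9 in replicate 1 and 15.9 in replicate 2, with pileups of 31 and 29. Its H4K12bu peaks had 9.38 and 5.02, with pileups of 20 and 9. The H3K18bu region lay 213 to 1199 bases downstream of the start (chr3:129543388-129544374) and did not cover it. H1-8 thus stood above the other members in every CCD841 library, but it is a single gene outside the clusters and not a replication-dependent gene by its known biology.

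Among the clustered linker genes, H1-1 had H3K18bu peaks with a −log10 p of 5.64 in replicate 1 and 4.64 in replicate 2, at pileups of 9 and 7. Its region (chr6:26017704-26017973) covered the start. H1-6, the testis linker histone, had no H3K18bu peak and H4K12bu peaks of 5.28 and 4.73 that did not overlap. The H3K18bu lists ended at 5.31 and 4.56, and the H4K12bu lists at 4.81 and 2.97, so the H1-1 peaks lay near the end of both H3K18bu lists.

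H2AC11 and H2BC11 encode H2A and H2B from a divergent pair. Their shared H3K18bu region (chr6:27132715-27132962) had a −log10 p of 8.44 in replicate 1 and 5.55 in replicate 2, with pileups of 12 and 8, and no H4K12bu peak was listed in either library. It covered the start of H2BC11 and lay wholly upstream of that of H2AC11. The human set held 12 such divergent H2A and H2B pairs, with starts 170 to 251 bases apart, so a 1 kb window around one start always held the other. Only this pair had a region in both replicates.

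Of the 15 H4 genes, 3 (20%) had an H3K18bu consensus region, beside 31.3% of all genes, and 2 of these 3 are copies of each other. H4C14 had H3K18bu peaks of 8.03 and 8.83 (−log10 p, replicates 1 and 2) with pileups of 14 and 13, and no H4K12bu peak. H4C15 had H3K18bu peaks of 5.78 and 7.0 with pileups of 11 and 11, and H4K12bu peaks of 7.03 and 4.61 with pileups of 11 and 7. Every 50-base stretch within 1 kb of their starts occurs at another member too, so the difference between them for H4K12bu is uncertain. H4C8 had H3K18bu peaks of 7.47 and 9.61 with pileups of 11 and 12, and an H4K12bu peak of 6.13 in replicate 1 and none in replicate 2. Its H3K18bu region covered the start (chr6:26285245-26285684). Its window shares no 50-base stretch with another member.

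No H3 gene, the family that encodes the protein with K18, had a region in both replicates. H3C15 and H3C12, chosen after their values were seen, had H3K18bu peaks of 4.79 and 4.64 in replicate 2 and none in the other 3 libraries. The H3C12 peak (chr6:27892947-27893019) lies within H2AC17 and is also the peak listed for H2AC17 and H2BC17. By position it cannot be assigned to the H3 gene. H3C14, H3C15, H2AC18 and H2AC19 are copies whose windows share 87.7% to 100% of their 50-base stretches with another member, and their values are uncertain for that reason. Together with H4C14 and H4C15 these are the 6 members that share most of their window. The other 68 share none of it (36 members) or at most 25% (32 members). Among the 36 members that share none, 3 had an H3K18bu (31.3% of all genes) and 1 an H4K12bu consensus region (14.7% of all genes).

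Promoter GC content moved with these counts. It was 44.3% to 61% (median 54.7%) in the 7 members with an H3K18bu consensus region and 36.3% to 76.3% (median 44%) in the other 67. The 25th percentile over all protein-coding promoters was 50.7%. The part of base composition in the low share of members was not tested.

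Regions were also compared by position. Among all protein-coding genes, the share with an H3K18bu region over a given base was highest at the start itself, 23.04% in replicate 1 and 25.6% in replicate 2. Among members it was also highest there, 6.76% and 16.2%. For H4K12bu the share over all genes peaked at the start at 15.2% and 8.92%, whereas the member share there was 1.35% and 2.70%. Within 5 kb the member share for H4K12bu did not exceed 2.70% in replicate 1, a value reached at several positions on both sides of the start, or 5.41% in replicate 2, so no position stood out. The nearest H3K18bu consensus region lay a median of 13477 bases from a member's start and 6290 bases from that of any protein-coding gene, and it was more than 10 kb away for 50 of 74 members (67.6%) and 41.3% of all genes.

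**Figure D3:**
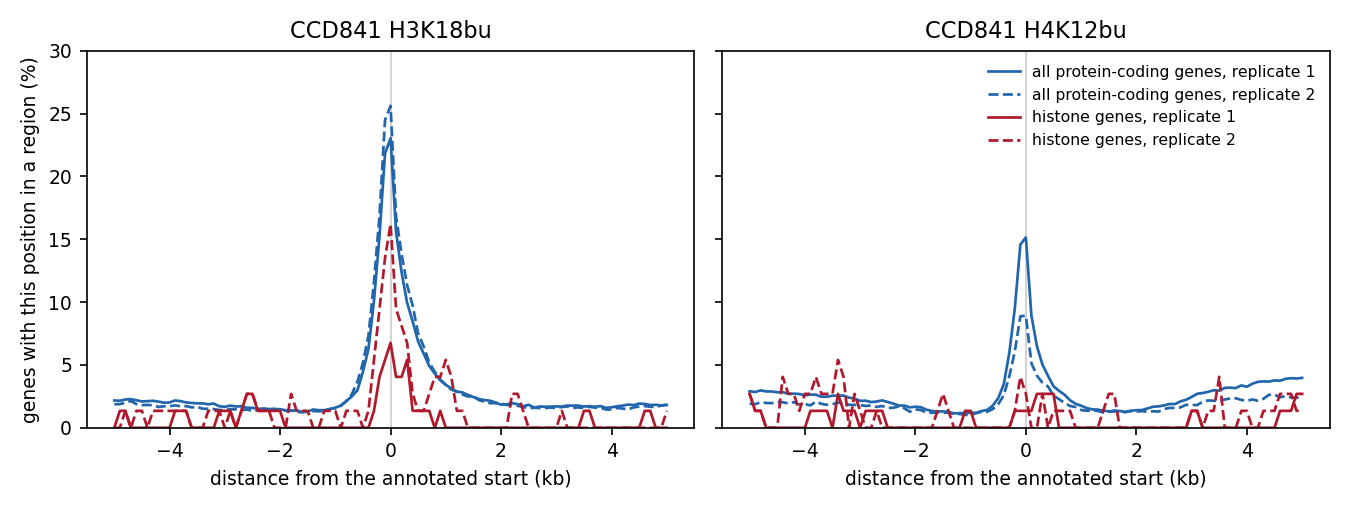
Share of genes (y axis, %) in which a position at a given distance from the annotated start (x axis, kb) lies in a listed region, for H3K18bu (left) and H4K12bu (right) in CCD841 cells, with replicate 1 solid and replicate 2 dashed. All protein-coding genes peak at the start in all 4 libraries (23.04% and 25.6%, 15.2% and 8.92%), while the histone genes reach 6.76% and 16.2% there for H3K18bu and 1.35% and 2.70% for H4K12bu.

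The chromosome 6 stretch from 26 to 28 Mb was sparsely covered as a whole. H3K18bu regions covered 0.757% of it in replicate 1 and 0.825% in replicate 2, against 2.34% and 2.15% of chromosome 6. H4K12bu regions covered 0.666% and 0.757%, against 1.97% and 1.69%. Among the 85 tiles of 2 Mb of chromosome 6, between 11 and 15 were covered less than this one in the 4 libraries, so the stretch was in the low part of the chromosome without being its lowest. Windows of 1 kb on either side of its member starts were covered to 2.04% ± 1.32 (SD, n = 2) for H3K18bu. For H4K12bu the value was 0.394% ± 0.299 (SD, n = 2). These windows lie at gene starts, so the share of the whole chromosome is not their match. In H3K18bu replicate 1, regions lay over the start in 23.04% of all protein-coding genes. At 1000 bases before and after the start the shares were 1.59% and 3.43%. Consensus regions numbered 29 for H3K18bu and 20 for H4K12bu in the stretch, or 14.5 and 10.0 per Mb, against 39.5 and 29.2 per Mb of the chromosome.

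Within the stretch, 2 of the 32 members of the first group (chr6:26017032-26285638) and 2 of the 21 further along, between bases 27125897 and 27893891, had an H3K18bu consensus region, beside 31.3% of all genes. The 17 other protein-coding genes that start there, among them butyrophilin, zinc finger and olfactory receptor genes, had no consensus region for either mark, beside 31.3% and 14.7%. H3K18bu replicate 1 listed a peak at 7 of these 17, close to the 40.3% of all genes, and replicate 2 at 3, beside 45.6%. PRSS16 was the gene with a peak in both (5.45 and 7.19). The difference between the histone genes and these neighbors was not tested. The chromosome 1 stretch was covered to 1.74% and 3.32% for H3K18bu, values on both sides of those of the whole chromosome (2.23% and 2.08%), and to 0.746% and 1.74% for H4K12bu (2.21% and 1.76%). Of its 11 members, H4C14 and H4C15 had an H3K18bu consensus region (18.2%, beside 31.3%).

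**Figure D4:**
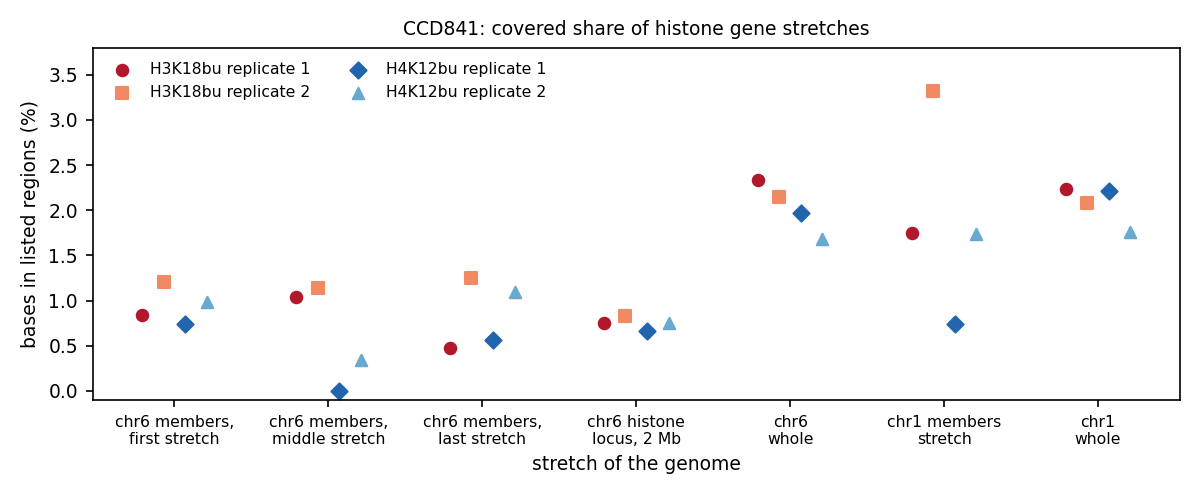
Share of bases in listed regions (y axis, %) for stretches that hold histone genes and for whole chromosomes 6 and 1, with 1 point per CCD841 library. All 4 libraries lie at 0.666% to 0.825% in the 2 Mb locus of chromosome 6 and at 1.69% to 2.34% over the chromosome.

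Genes that run the histone locus body and process histone mRNA had a consensus region at a higher share than the histone genes, a description with no test. Of 18 such genes, 11 (61.1%) had an H3K18bu and 8 (44.4%) an H4K12bu consensus region at the start, beside 31.3% and 14.7% of all protein-coding genes. The strongest were NPAT, the cyclin E and CDK2 substrate that activates histone transcription, and CASP8AP2 (FLASH), which joins transcription to 3′ end processing. H3K18bu peaks at NPAT had a −log10 p of 25.7 and 19.2, with pileups of 27 and 21, and those at CASP8AP2 30.6 and 17.9, with pileups of 31 and 19. Both genes lay above each of the 74 members in both H3K18bu libraries. For H4K12bu, NPAT had 9.91 and 9.56 and HINFP, the factor that binds H4 promoters, 12.99 and 7.01. NPAT starts head to head with ATM, so its peak belongs to both genes by position. SLBP itself had H3K18bu peaks of 5.64 and 7.49.

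Histone chaperones and import factors were near the background, with 5 of 18 (27.8%) under H3K18bu and 3 of 18 (16.7%) under H4K12bu. NASP, a chaperone of H3 and H4, had H3K18bu peaks of 7.47 and 7.504 and H4K12bu peaks of 6.59 and 6.60, and ASF1B had H3K18bu peaks of 6.54 and 10.7. Of 12 histone genes that are expressed outside S phase, 2 had an H3K18bu consensus region and none an H4K12bu one. These were H3-3B, which encodes H3.3 (6.54 and 8.54), and H2AZ2 (5.64 and 5.55).

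The labelled cell type was checked on the same lists. Of 12 colon epithelium markers, 1 (8.33%, beside 31.3% of all genes) had an H3K18bu consensus region, VIL1 (6.72 and 6.59), and KRT8 and KRT18, which are neighbors, shared an H4K12bu one (16.7%, beside 14.7%), and EPCAM and CDH1 had no peak in any CCD841 library. Of 12 fibroblast markers, COL6A3, COL1A2, FN1 and TWIST2 had an H3K18bu region (33.3%, close to the 31.3% of all genes), led by COL6A3 (17.0 and 12.2), and COL1A2 an H4K12bu one (8.33%, beside 14.7%). The lists do not measure expression, and the part of cell identity in the histone gene values was not tested. In mouse, the 12 epithelium markers had a consensus region in 6 cases for H3K18bu (6.84% of all genes), 5 for H4K12bu (16.4%), 7 for H3K18ac (24.4%) and 2 for H4K12ac (27.8%). Of the 12 fibroblast markers, 1 had an H3K18ac region and none a region of the other 3 marks.

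In mouse large intestine the values rest on very few reads. The pileups at histone genes were 1 in all 13 members with an H3K18bu peak in replicate 1 and reached at most 5 in any library. Because the gene table carries no strand, a window of 1 kb around either gene end was used. At short genes, such as most of these members, the windows of both ends overlap, so less sequence was searched than at longer genes. The shares of all genes set beside mouse member counts were not matched for this. A consensus region was found at 4 of 57 members for H3K18bu (7.02%, against 6.84% of all protein-coding genes), 2 for H4K12bu (3.51%, against 16.4%), 11 for H3K18ac (19.3%, against 24.4%) and 1 for H4K12ac (1.75%, against 27.8%). A peak in at least 1 of the 8 libraries was listed for 53 of 57 members (93.0%) and for 85.9% of all genes.

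Single libraries listed far more members than both replicates together did. H3K18bu peaks were listed at 13 and 10 members in replicates 1 and 2 (26.8% and 23.6% of all genes), and H4K12bu peaks at 9 and 14 (31.8% and 45.7% of all genes). H3K18ac peaks were listed at 28 and 41 members (57.4% and 52.8% of all genes), and H4K12ac peaks at 27 and 24 (53.1% and 62.7% of all genes). H3K18ac replicate 2 was the one mouse library in which the member share was above that of all genes, 71.9% against 52.8%, and for 16 of the 33 members of chromosome 13 with a peak there, the strongest peak was at the lowest value of that list.

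The H3K18bu and H4K12bu consensus regions at mouse histone genes were all on chromosome 3. For H3K18bu these were H3c15, H2ac19, H2ac18 and H3c14, with 2 regions among them, and for H4K12bu H2ac18 and H3c14. That is 4 and 2 of the 10 members of chromosome 3, beside 10.7% and 17.7% of its 983 genes, so the H4K12bu count was close to the background. On chromosome 13, 0 of 47 members had a consensus region for either Kbu mark, beside 6.88% (H3K18bu) and 20.1% (H4K12bu) of the 829 genes of that chromosome. Of the 57 other genes between the first and the last of these members, 1 had an H3K18bu and 0 an H4K12bu consensus region, and 12 an H3K18ac and 5 an H4K12ac one. The H3c15 and H2ac19 peaks for H3K18bu had a −log10 p of 3.98 and 5.39, at pileups of 1 and 2. H4c14 had H3K18bu peaks of 3.38 and 3.98 at pileups of 1 and 1 that did not overlap. For H4K12bu, H3c15 had 3.98 and 8.27, at pileups of 1 and 4, in different places, while H2ac18 had 3.38 and 4.50 and H2bc21 3.98 and 3.38. H3c15 and H4c14 had a peak in all 8 libraries. The promoters of H3c14 and H3c15 share a run of 231 bases and those of H2ac18 and H2ac19 one of 219, so these pairs are copies and their values are uncertain.

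For H3K18ac, 6 of 47 members on chromosome 13 had a consensus region, beside 34.0% of the genes of that chromosome, and 5 of 10 on chromosome 3, beside 28.6%. For H4K12ac it was 1 of 47, beside 36.1%, and 0 of 10, beside 30.6%. By the weaker replicate for H3K18ac, H2ac18, H2ac23 and H3c14 led, with 4.21 in replicate 1 for each and 4.47, 5.36 and 4.33 in replicate 2, and the H2ac23 peaks did not overlap. By the weaker replicate for H4K12ac, H3c15 (3.98 and 6.29), H2bc23 (4.33 and 3.89) and H4c14 (3.70 and 3.89) led, but H2bc14 was the gene with a consensus region. That gene was named after its values were seen.

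The Kac lists did not end at the same value on every chromosome, and this bears on the comparison of the marks. Each Kac list ends near the limit of 300000 peaks, and in 3 of the 4 the peaks tied at the lowest −log10 p lay only on chromosomes whose names come first in text order. In H3K18ac replicate 2 these ties made up 52.0% of the list and lay on 6 chromosomes, with 23857 on chromosome 13 and none on chromosome 3. In H4K12ac replicate 1 they made up 52.8%, with 26717 on chromosome 13 and none on chromosome 3. In H3K18ac replicate 1 they lay on all 19 autosomes, and in H4K12ac replicate 2 on chromosome 1 alone.

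The covered share of the stretch from the first to the last member of chromosome 13 (chr13:21715711-23934913) was divided by that of the chromosome. The H3K18bu libraries had ratios of 0.560 and 0.720, the H4K12bu libraries 0.648 and 0.609, the H3K18ac libraries 0.924 and 1.09, and the H4K12ac libraries 0.962 and 0.896. All 4 Kbu values lay below all 4 Kac values. The mean was 0.634 ± 0.0676 (SD, n = 4) for Kbu and 0.969 ± 0.0877 (SD, n = 4) for Kac, a difference of -0.34 (exact permutation test, two-sided, p = 0.0286, which 70 assignments cannot go below). Without the peaks at the lowest value of each list the difference was -0.20 and the groups overlapped (exact p = 0.0857). With the 50645 strongest regions of every library it was -0.071 (exact p = 0.257), and with q below 0.05 it turned to 1.04 (exact p = 0.4). The stretch also holds 57 other genes, 36 of them vomeronasal receptor genes, so its coverage is not that of histone genes alone. With 2 mice per condition and 4 libraries on each side, libraries must share mice, and the labels do not say which. Here n counts libraries, and p-values in mouse that treat them as independent are too small.

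On chromosome 3 the stretch of the 10 members (chr3:96219885-96270192) holds no other protein-coding gene and was covered more densely than its chromosome in all 8 libraries. The H3K18bu libraries had ratios of 7.45 and 4.08, the H4K12bu libraries 6.61 and 7.11, the H3K18ac libraries 2.11 and 3.57, and the H4K12ac libraries 2.86 and 2.24. The mean was 6.31 ± 1.53 (SD, n = 4) for Kbu and 2.69 ± 0.671 (SD, n = 4) for Kac, a difference of 3.62 (exact permutation test, two-sided, p = 0.0286, again the lowest value available), a comparison added after the values of chromosome 13 had been seen. The regions behind it numbered 3 to 10 per Kbu library and 8 to 12 per Kac library. It was 3.62 without the peaks at each list's lowest value and 3.00 with regions per Mb (exact p = 0.0286 for both). With list lengths made equal the groups overlapped (difference 1.82, exact p = 0.229), and with a pileup of at least 2 H3K18bu replicate 1 and H4K12bu replicate 1 had no region left (difference 3.52, exact p = 0.429).

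**Figure D5:**
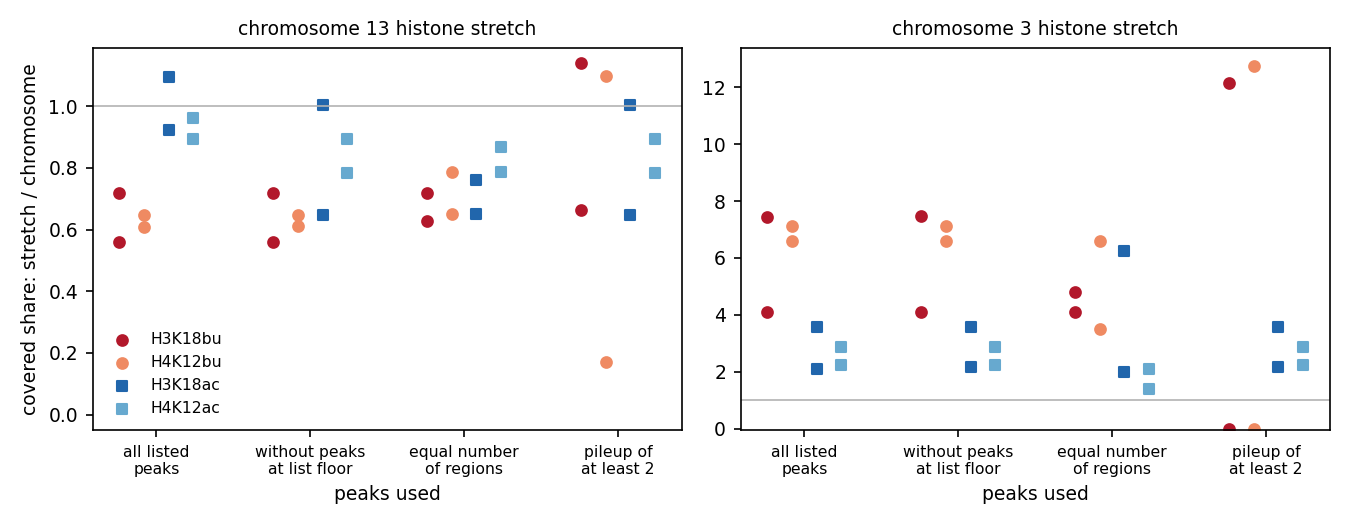
Covered share of the member stretch divided by that of its chromosome (y axis) for chromosome 13 (left) and chromosome 3 (right), with 1 point per mouse library, under 4 choices of peaks (x axis); the grey line marks equal coverage. With all listed peaks the Kbu points (circles) lie below the Kac points (squares) on chromosome 13 (0.560 to 0.720 against 0.896 to 1.09) and above them on chromosome 3 (4.08 to 7.45 against 2.11 to 3.57), and the groups overlap with an equal number of regions.

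For single genes, the highest −log10 p near a gene end was turned into a percentile within each library, over the 11065 protein-coding genes with a peak in at least 4 of 8 libraries. Of the 57 members 19 entered. Of all genes, 1.66% had the 4 Kbu libraries all above the 4 Kac libraries and 2.55% all below. No count of members is read against these shares, since genes without a peak share a tied rank that depends on the length of the list. No gene passed an adjusted p of 0.05 (exact permutation test, Benjamini-Hochberg over 11065 genes, smallest adjusted p = 0.613), and 466 had an unadjusted p below 0.05. H3c15 had mean percentiles of 87.3 in Kbu and 72.2 in Kac (exact p = 0.286, adjusted p = 0.84), and H4c14 63.1 and 38.7 (exact p = 0.114, adjusted p = 0.723), with overlap between the groups in both. These are the members with a peak in all 8 libraries. Of the 19, 5 had no peak in any Kbu library and entered through the Kac libraries alone.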

How the data were processed

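CUT&Tag peak lists of 4 CCD841 and 8 mouse libraries were used, 1 list per library, with replicates not pooled and no control library named. The submitters' notes list bcl2fastq 2.17.1, cutadapt 1.9.1, Bowtie2 2.3.1, MACS2 2.1.0, hg38 and mm10. Peaks were called at p below 0.01 with at most 300000 kept. The authors deposited for each peak the fold ratio over the local background and the −log10 p and −log10 q that MACS2 wrote. The deposited score column, a display value made from the p, was not used. Read depth is not given by the lists.

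Members and gene lists were chosen with earlier results of these data known. Overlapping peaks were merged and consensus regions needed an overlap of at least 1 bp. Pileups were solved from fold and p, and the solver recovered 100% of 2919 simulated peaks. Genes were those of GENCODE 44 and of RefSeq GRCm38.p6. Genes named are, in CCD841, the top 2 of each family and mark by the lower −log10 p of the replicates and, in mouse, the top 3 of each mark. Member counts were set beside all protein-coding genes with no test. Kbu and Kac libraries were compared by two-sided exact permutation tests. Alternatives were q thresholds, windows, list lengths, other shared-region rules, leaving out each replicate and a replicate block. Chosen after seeing the data were a minimum pileup of 2, removal of peaks tied at a list's lowest p, MANE Select starts, older mouse gene names, members sharing no 50-base stretch and a peak in either replicate. Same-numbered mouse libraries did not deviate together (correlation of replicate differences -0.012 to 0.020 over 11065 genes). Python 3.11.15, NumPy 2.4.6, pandas 2.3.3, SciPy 1.17.1 and bedtools 2.31.1 were used.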

Additional observations from a re-analysis of the deposited data

How the results depend on the processing

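In CCD841 cells the H3K18bu count stayed between 6 and 10 of 74 members with stricter q, wider windows, gene bodies, longer regions, equal list lengths, MANE Select starts or the highest list floor, beside 27.6% to 60.9% of all genes. It was 7 to 25 when 1 replicate was left out (40.3% and 45.6%), 25 with a peak in either replicate (53.2%) and 3 of 36 for members sharing no 50-base stretch (31.3%). The H4K12bu count, with the share of all genes in brackets, was 1 with q below 0.01 (6.42%), 6 for gene body overlap (62.8%), 4 to 6 when 1 replicate was left out (27.8% and 27.3%), 1 of 70 without linker genes outside the clusters, 7 with a peak in either replicate (38.8%), 0 with peaks at or above the highest list floor (5.27%) and 1 of 36 for members sharing no stretch (14.7%). The covered share of the 2 Mb stretch was 0.665% for H3K18bu with the same number of strongest regions and 0.567% for H4K12bu with q below 0.05. In windows of 1 kb around member starts, in place of the whole stretch, it was 2.04% (H3K18bu) and 0.394% (H4K12bu). The shares of all genes for gene body overlap (60.9% and 62.8%) were not matched for gene length. The median span of members was 509 bases.

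In mouse, in the order H3K18bu, H4K12bu, H3K18ac and H4K12ac, the member counts were 0, 0, 0 and 0 with q below 0.05 (0.0822%, 0.964%, 4.29% and 7.39% of all genes) and 18, 18, 47 and 39 with a peak in either replicate (38.2%, 53.1%, 71.4% and 73.7%). When 1 replicate was left out they were 10 to 13 (23.6% and 26.8%), 9 to 14 (31.8% and 45.7%), 28 to 41 (57.4% and 52.8%) and 24 to 27 (62.7% and 53.1%). Gene body overlap gave 0, 1 and 6 for the first 3 (13.9%, 23.2% and 42.3%), shares that were not matched for gene length. A peak of each replicate, overlapping or not, gave 5 for H4K12bu (24.4%), 22 for H3K18ac (38.9%) and 12 for H4K12ac (42.01%). The same number of strongest regions gave 2 for H3K18bu (5.90%), 2 for H3K18ac (8.85%) and 0 for H4K12ac (10.4%). A pileup of at least 2 gave 0 for H3K18bu (0.978%), H4K12bu (4.15%) and H4K12ac (26.4%), and 8 for H3K18ac (18.2%). H4K12ac gave 4 with a 3 kb window (37.8%), 3 of 67 with older gene names and 0 without the peaks at the list's lowest p (26.4%). These counts are too small or too dependent on the choice of peaks to rank the marks at these genes. Those of H3K18bu, H4K12bu and H4K12ac were 0 without 1-read peaks. The H3K18ac count was 11 of 57 with all peaks and 8 without 1-read peaks, but 2 with the same number of strongest regions.

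The chromosome 13 difference of Kbu and Kac (-0.34) was -0.31 with regions per Mb, -0.071 with the same number of strongest regions, -0.064 with a pileup of at least 2, -0.20 without the lowest peaks and 1.04 with q below 0.05, where it reversed. It was -0.34 to -0.33 when 1 replicate was left out, where 2 libraries against 2 cannot give an exact p below 0.333. With the replicate block the exact p was 0.0556 for the difference of -0.34 on chromosome 13 and for that of 3.62 on chromosome 3, the smallest p that 36 assignments allow. The chromosome 3 difference was 1.82 with the same number of strongest regions, 3.52 with a pileup of at least 2, 4.52 with q below 0.05 (exact p = 1) and 2.69 to 4.54 when 1 replicate was left out. With q below 0.05 the Kbu ratios ran from 0 to 29.7 (mean 7.42) and the Kac ratios from 0 to 6.66, so that Kbu mean rests on its highest library. For gene ranks, 0 of 19 members had groups without overlap, 2 under the replicate block (8.53% of all genes) and 5 to 8 when 1 replicate was left out (34.3% to 35.7% of all genes), counts that the tied ranks of absent peaks can set and from which nothing is read. The cause of these changes was not tested beyond what each alternative removes.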

Other observations

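The regulators of histone genes were also looked up in the mouse lists. Of 17 genes of the histone locus body and histone mRNA processing found in the mouse table, 0 had a consensus region for H3K18bu, 7 for H4K12bu, 7 for H3K18ac and 7 for H4K12ac (41.2% each for the latter 3). The shares over all protein-coding genes were 6.84%, 16.4%, 24.4% and 27.8% in the same order. Cpsf2, a subunit of the cleavage complex that cuts histone mRNA, had H4K12ac peaks with a −log10 p of 8.995 and 7.53, at pileups of 7 and 7, and H3K18ac peaks of 4.95 and 11.1. Npat had H3K18ac peaks of 6.26 and 3.77 and H4K12ac peaks of 3.78 and 7.86. H3K18bu replicate 1 listed 8 of these 17 genes and replicate 2 listed none, beside 26.8% and 23.6% of all genes. The replicates listed 8 and 16 for H4K12bu (31.8% and 45.7% of all genes) and 13 and 12 for H3K18ac (57.4% and 52.8%). For H4K12ac they listed 12 and 14 (53.1% and 62.7%).

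Of 17 histone chaperones and import factors in the mouse table, 3 had an H3K18bu, 6 an H4K12bu, 6 an H3K18ac and 6 an H4K12ac consensus region (17.6% for the first and 35.3% for each of the others). The shares over all protein-coding genes were 6.84%, 16.4%, 24.4% and 27.8% in that order. Nasp, the chaperone of H3 and H4, had H4K12ac peaks of 5.64 and 8.995, and Hira had H4K12bu peaks of 4.87 and 6.33. No test was made of these lists.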
